A study of Mus musculus with 3 samples.

Results

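Interferon-high Ly6c2 monocytes are the Ly6c2-positive barcodes of skin wounds that carried the most RNA of 6 interferon-stimulated genes while holding little complement C1q RNA. Barcodes were kept when they had at least 200 genes, at least 2000 unique molecular identifiers (UMIs, each counting 1 captured RNA molecule) and under 10% mitochondrial UMIs. Each kept barcode received a score, the mean of ln(1 + UMIs per 10000) over Ifit1, Ifit2, Ifit3, Isg15, Irf7 and Slfn4. A barcode was a member when its score lay in the top 15% of the pooled libraries, it had at least 2 Ly6c2 UMIs and its UMIs of C1qa, C1qb and C1qc summed to under 3. This rule gave 150 members among 570 kept Ly6c2 barcodes, 2702 kept barcodes and 4877 barcodes in all. The other 420 Ly6c2 barcodes are called the others, and 301 of them were C1q-low by the same limit of 3 UMIs.

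The study followed monocytes and macrophages of the mouse skin wound by single-cell RNA sequencing on the 10x Chromium platform. The 3 libraries came from wounds of male C57BL6/J mice on day 3, day 6 and day 10 after injury, with no other allele or agent named. Each library was a pool of 2 mice that cannot be told apart, so each day is 1 sample and no difference between days has a replicate. The mice's age and the gates of the isolation are not given in the sources used here. The members numbered 135 on day 3, 6 on day 6 and 9 on day 10, so day 3 carries nearly all of the description. Because the members were chosen on measured RNA of these same barcodes, members against others is a description and no p-value is given.

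Type I interferons are secreted proteins that bind the receptor IFNAR1 and IFNAR2 on nearly every cell, where the kinases JAK1 and TYK2 pass on the signal. A complex that holds IRF9 then binds a DNA element, the interferon-stimulated response element, near many genes that limit virus growth and alert other immune cells. Interferon gamma acts through another receptor and at a different element, the GAS element. Ly6C-high monocytes leave the blood early after injury, enter the wound through the chemokine receptor CCR2 and give rise to wound macrophages.

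The promoters of the genes that set the members apart were examined for these elements, because such genes moved together. RefSeq promoter windows of 250 bases before to 50 bases after the start of transcription (build GRCm38.p6, the assembly that mm10 names) were searched on both strands for the core of the interferon-stimulated response element, GAAANNGAAA. The 5 windows below hold a match and belong to rule genes or to genes with large ratios. Acod1 is shown as the gene with the largest day 3 ratio among those at 100 CPM or more, and its window held none. Each is written 5′ to 3′ on the strand of its gene, with matches in capitals, where TTTCNNTTTC is the same core read on the opposite strand.
Ifit1, chr19:34640639-34640938, plus strand: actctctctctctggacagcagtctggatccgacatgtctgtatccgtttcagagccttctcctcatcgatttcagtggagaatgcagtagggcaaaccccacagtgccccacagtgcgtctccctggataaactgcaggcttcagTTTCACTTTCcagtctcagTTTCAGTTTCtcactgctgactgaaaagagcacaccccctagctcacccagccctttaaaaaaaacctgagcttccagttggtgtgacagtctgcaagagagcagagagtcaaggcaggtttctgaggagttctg
Isg15, chr4:156200769-156201068, minus strand: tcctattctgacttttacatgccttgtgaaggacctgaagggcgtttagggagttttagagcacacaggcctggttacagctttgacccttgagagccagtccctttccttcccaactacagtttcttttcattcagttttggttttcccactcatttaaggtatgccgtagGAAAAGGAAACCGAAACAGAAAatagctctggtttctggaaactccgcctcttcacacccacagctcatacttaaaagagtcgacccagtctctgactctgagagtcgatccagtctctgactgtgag
Rsad2, chr12:26456403-26456702, minus strand: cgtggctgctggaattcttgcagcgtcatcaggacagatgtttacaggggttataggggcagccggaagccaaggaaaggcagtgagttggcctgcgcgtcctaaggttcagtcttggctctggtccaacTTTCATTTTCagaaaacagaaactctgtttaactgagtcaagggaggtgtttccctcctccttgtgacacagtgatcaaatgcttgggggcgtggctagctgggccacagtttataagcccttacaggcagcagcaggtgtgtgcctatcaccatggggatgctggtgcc
Cxcl10, chr5:92348840-92349139, minus strand: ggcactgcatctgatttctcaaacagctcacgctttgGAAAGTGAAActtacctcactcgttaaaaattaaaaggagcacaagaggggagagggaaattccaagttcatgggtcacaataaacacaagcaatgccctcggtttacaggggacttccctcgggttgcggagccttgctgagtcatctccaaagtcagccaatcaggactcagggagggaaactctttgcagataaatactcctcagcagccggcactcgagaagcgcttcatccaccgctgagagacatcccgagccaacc
Phf11b, chr14:59341281-59341580, minus strand: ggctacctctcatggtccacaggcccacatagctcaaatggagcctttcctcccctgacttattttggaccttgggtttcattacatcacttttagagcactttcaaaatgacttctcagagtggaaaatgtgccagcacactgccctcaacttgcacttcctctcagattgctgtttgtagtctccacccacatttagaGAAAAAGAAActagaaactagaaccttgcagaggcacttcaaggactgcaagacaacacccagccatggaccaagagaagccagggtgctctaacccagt
Acod1, chr14:103046762-103047061, plus strand: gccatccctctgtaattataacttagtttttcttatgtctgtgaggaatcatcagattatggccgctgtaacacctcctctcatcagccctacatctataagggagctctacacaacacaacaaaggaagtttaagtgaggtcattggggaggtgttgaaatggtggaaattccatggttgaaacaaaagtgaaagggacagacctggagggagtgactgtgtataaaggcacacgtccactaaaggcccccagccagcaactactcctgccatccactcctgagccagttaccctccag

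The matches lay 104 and 85 bases before the start in Ifit1, 120 bases before it in Rsad2, 213 bases in Cxcl10 and 50 bases in Phf11b. Isg15 held 3 overlapping matches, 78, 72 and 66 bases before its start. Of the 6 rule genes, 3 held a match (Ifit1, Ifit3 and Isg15), and Ifit2, Irf7 and Slfn4 held none in these windows. Among the 76 listed interferon-stimulated genes outside the rule, 60 had a window and 29 of these (48.3%) held the core, against 1079 of all 27025 genes with a window (3.99%) and 1131 of all 32851 windows (3.44%). Of the genes at least 1.5-fold higher in members on day 3, 590 had a window and 81 (13.7%) held it, as did 27 of 957 (2.82%) of those at least 1.5-fold lower and 287 of 6721 (4.27%) of all genes compared. The higher genes include the 6 rule genes. Members were chosen on interferon-stimulated genes, so a larger share among their higher genes was partly built in. The GAS core, TTCNNNGAA on either strand, was in 10 of the 60 windows (16.7%) and in those of 9.55% of all genes with a window (8.3% of all windows). None of the 11 windows of classical monocyte genes and 1 of the 11 of chemokine genes (Cxcl10) held the response element core. A match is a description of letters and not a bound site, and a window without one says only that these letters are not in it.

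The members made up 30.6% of the 441 Ly6c2 barcodes on day 3 (95% exact Clopper-Pearson interval 26.3% to 35.1%), 16.7% of 36 on day 6 (6.37% to 32.8%) and 9.68% of 93 on day 10 (4.52% to 17.6%). Ly6c2 barcodes were themselves 50.2%, 6.53% and 7.31% of the kept barcodes on the 3 days. Members were thus 15.4% of kept barcodes on day 3, 1.09% on day 6 and 0.708% on day 10. These intervals, like all others here, cover counting error only and not the spread between mice. The score limit was set on the pooled barcodes, of which day 3 held most of those above it (339 of 405). With the top 15% taken inside each library, 11.1% of Ly6c2 barcodes on day 3, 22.2% on day 6 and 41.9% on day 10 were members, so the order of the days is set by that choice. On day 10 that within-library limit reached down to a score of 0.207, with a median of 0.360.

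The members had scores of 0.884 to 2.96 with a median of 1.25 on day 3, 0.929 to 2.51 (median 1.74) on day 6 and 0.892 to 2.01 (median 1.53) on day 10. The others had medians of 0.539, 0.204 and 0.129. The score had no gap at the limit: on day 3, 20 C1q-low Ly6c2 barcodes lay within 0.1 above it and 19 within 0.1 below. The members just inside scored 0.884 and 0.886, and the C1q-low Ly6c2 barcodes just outside scored 0.882 and 0.876. Of the day 3 members, 24 had UMIs of all 6 rule genes, 32 of 5, 33 of 4, 44 of 3 and 2 of 2. A large group outside the members also lay above the limit, namely 70 of the 96 C1q-high Ly6c2 barcodes on day 3 (72.9%, 62.9% to 81.5%).

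**Figure D1:**
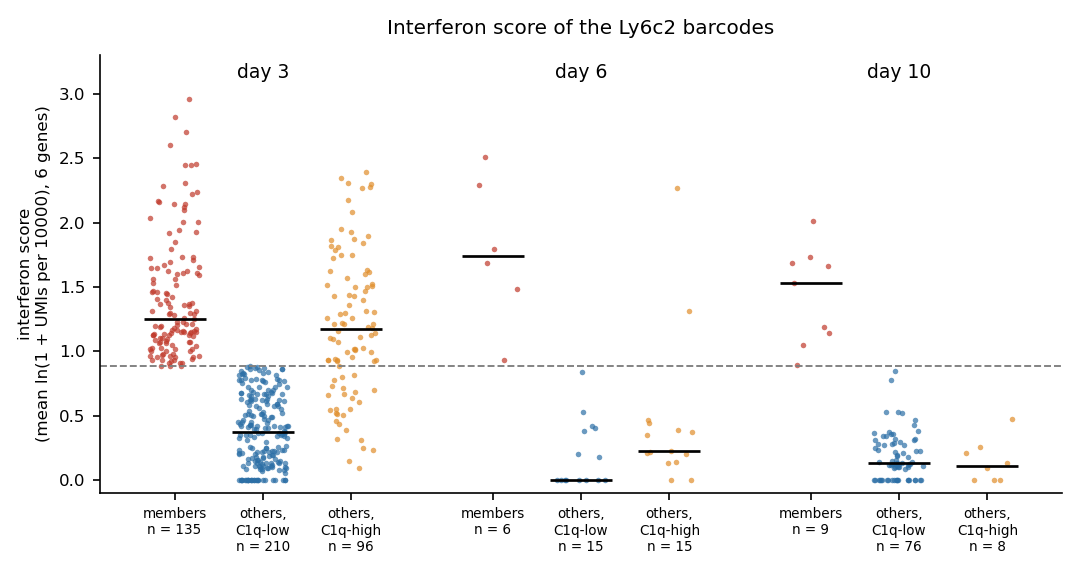
Interferon score (mean ln(1 + UMIs per 10000) of 6 genes) of each Ly6c2 barcode by day, for members, C1q-low others and C1q-high others; bars are medians and the dashed line is the limit of 0.884. The members on day 3 run down to the limit with no gap, and 70 of 96 C1q-high others on that day lie above it.

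The members were shallower than the others: their median was 9581 UMIs on day 3, 9386 on day 6 and 10125 on day 10, against 12230.5, 13709.5 and 10764 in the others. Over the 441 Ly6c2 barcodes of day 3 the score and the total UMIs had a Spearman rho of -0.342, which is a description across barcodes of 1 library. Median mitochondrial shares were 4.16%, 4.25% and 3.31% in members and 3.75%, 3.40% and 2.82% in the others. The members' summed UMIs were 1333064, 68127 and 89570, against 3667404, 403803 and 929352 in the others, so day 6 and day 10 give coarse values. No barcode was shared between the libraries of day 3 and either later day, 2 were shared between day 6 and day 10, and neither was a member. Scrublet called 9 kept barcodes doublets, 2 of them members, and all were kept in.

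The 6 rule genes are given as a description only. Levels are given as CPM, the UMIs of a gene summed over a group per 1000000 UMIs of that group. Isg15, which encodes a ubiquitin-like protein attached to other proteins, had 1847 CPM in members and 633 CPM in others on day 3, 1673 and 287 CPM on day 6, and 1675 and 99 CPM on day 10. Irf7 encodes the transcription factor through which a type I interferon signal is amplified, and it had 870, 969 and 614 CPM in members and 342, 248 and 88.2 CPM in others on days 3, 6 and 10. Slfn4 belongs to the Schlafen genes and had 758, 778 and 89.3 CPM in members, against 209, 74.3 and 12.9 CPM in others. Slfn4 was the lowest of the 6 in day 10 members relative to day 3 members, and 2 of the 9 members on day 10 held its UMIs. Ifit1, Ifit2 and Ifit3 bind or sense foreign RNA, and their day 3 ratios of members to others were 4.44, 4.76 and 3.57. When each gene was left out of the score that chose the members, its day 3 ratio was 3.42 for Ifit1, 3.72 for Ifit2, 3.11 for Ifit3, 2.52 for Isg15, 2.25 for Irf7 and 2.71 for Slfn4.

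The label of classical monocyte was checked against genes that the rule did not name. At 2000 UMIs per barcode on day 3, UMIs of Chil3, a chitinase-like protein, were in 74.8% of members and 67.6% of others, and in 2% of the 100 barcodes with dendritic markers and no Ly6c2 UMI (81.5%, 77.1% and 5% without thinning). Ccr2, the receptor that brings monocytes into tissue, separated the groups less, with shares of 69.6%, 73.2% and 52% (90.4%, 95.8% and 86% without thinning). Shares for Plac8 were 93.3%, 90.2% and 58% (97%, 98.7% and 78% without thinning). UMIs of Ccr2 and Plac8 were thus common in the barcodes with dendritic markers too, so the label rests mainly on the rule's Ly6c2 limit and on Chil3. Shares in macrophages without Ly6c2 are not given here, so this check does not tell monocytes from macrophages. Ccr2 stood at 885 CPM in members and 893 CPM in others. The 15 listed classical monocyte genes summed to 19405 CPM in members and 16615 CPM in others. Of the 14 compared, 3 were at least 1.5-fold higher (Ms4a4c, Thbs1 and Plac8) and 1 was at least 1.5-fold lower (Mgst1), with a median log2 ratio of -0.07 beside -0.06 for all genes. Ly6c2 itself, which the rule used in both groups, had 1416 CPM in members and 973 CPM in others, and reads of its near-identical neighbour Ly6c1 may be split between them.

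Genes of the patrolling, Ly6C-low type of monocyte were lower in members on day 3. Of 8 compared, 6 were at least 1.5-fold lower (Treml4, Spn, Itgal, Ear2, Adgre4 and Cx3cr1) and none higher. All had low counts, as with Cx3cr1, the fractalkine receptor, at 16.5 CPM in members and 32.4 CPM in others. Among 15 compared mature macrophage genes, Mertk, Maf and Ms4a7 were at least 1.5-fold higher and Gpnmb and Pltp lower. Set against the C1q-low others, 7 were higher and 1 lower, with a median log2 ratio of 0.46. Markers of T cells, NK cells, mast cells and Langerhans cells had 0 UMIs in the day 3 members. Summed markers of dendritic cells stood at 60 CPM in members and 148 CPM in others, of neutrophils at 165 and 124 CPM, of B cells at 66 and 86 CPM, of endothelium at 23 and 9 CPM, and of fibroblasts at 4 CPM in both.

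A gene was compared when both groups together held at least 20 UMIs of it, and called when its CPM ratio was at least 1.5-fold with at least 3 UMIs in the higher group. On day 3, 748 of 8474 genes (8.83%) were at least 1.5-fold higher in members and 1215 (14.3%) at least 1.5-fold lower. Interferon-stimulated genes outside the rule (76 listed in 5 families) lay far above that background in the upward direction. Of the 64 compared, 50 were at least 1.5-fold higher and 2 (Ifi27 and Trim21, both at low counts) at least 1.5-fold lower, with a median log2 ratio of 0.96. They summed to 31254 CPM in members and 21308 CPM in others, a ratio of 1.47 (1.45 to 1.48). Per barcode the members had 88.5 to 680 UMIs of these genes per 10000 with a median of 297, and the others 66.7 to 531 with a median of 199. The ranges overlapped, and 124 of 135 members lay above the median of the others. Since these genes belong to the same barcodes and response as the score, this is no independent evidence for the group.

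The number of interferon-stimulated genes with a UMI was compared at equal depth. With every barcode thinned to 2000 UMIs, members had UMIs of a median of 22 of 70 interferon-stimulated genes on day 3 and others of 14, while the C1q-low others had 13. On day 6 the medians were 23.5 in members and 11 in others, and on day 10 they were 25 and 10. UMIs of Rsad2 were then in 37.8% of members and 14.1% of others on day 3, and in 5% of 100 barcodes with dendritic markers and no Ly6c2 call. Without thinning, those shares were 64.4%, 30.7% and 21%.

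Effector genes act on viral RNA, proteins and membranes, and 25 of 35 compared were at least 1.5-fold higher in members on day 3 with 2 lower. Rsad2, which encodes viperin, an enzyme that makes a chain-terminating nucleotide, had 575 CPM in members and 142 CPM in others on day 3 (4.05-fold, 3.62 to 4.54). It had 1732 CPM in members and 47.1 CPM in others on day 6, and 324 and 36.6 CPM on day 10. The summed level of Rsad2 was higher in members on each of the 3 days, but the later sums rest on few barcodes. Ordered by falling score, its UMIs were 37, 74, 1, 6, 0 and 0 in the members of day 6. In those of day 10 they were 2, 15, 3, 3, 1, 0, 2, 2 and 1. Oasl1, an OAS-like protein that limits Irf7 translation in mouse, had 197 CPM in members and 52.9 CPM in others on day 3 (3.73-fold). Mx1, an interferon-induced GTPase, had 165 and 47.4 CPM (3.48-fold). Phf11b had 345 and 127 CPM and Samd9l 134 and 48.3 CPM. Bst2, the tether of budding virus known as tetherin, had 983 and 552 CPM (1.78-fold), and Ifitm3, which blocks virus entry at endosomes, had 7312 and 6002 CPM, a ratio of 1.22 that was not called.

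Each family had most of its compared genes higher in members on day 3. All 8 compared IFIT and OAS genes outside the rule were at least 1.5-fold higher in members, with sums of 1109 CPM in members and 483 CPM in others. Of the Ifi200 family, whose proteins bind DNA in the nucleus and cytosol, 10 of 12 were at least 1.5-fold higher, with sums of 4277 and 2088 CPM. Ifi205 had 217 CPM in members and 71.2 CPM in others (3.05-fold, 2.57 to 3.62), and Ifi206 had 188 and 62.4 CPM. Reads of this family's close copies may be split between them, as may those of Ifit3 and Ifit3b or of Slfn8 and Slfn9. Of the enzymes that attach ISG15 to proteins or take it off, 3 of 4 were higher, among them Usp18, the ISG15 protease that also restrains the receptor, at 112 and 43.4 CPM. Of the Schlafen genes outside the rule, 4 of 5 were higher, with a median log2 ratio of 0.88. Of the guanylate-binding and immunity-related GTPases, 8 of 9 were higher, with Gbp2 at 63.8 CPM in members and 19.4 CPM in others.

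**Figure D2:**
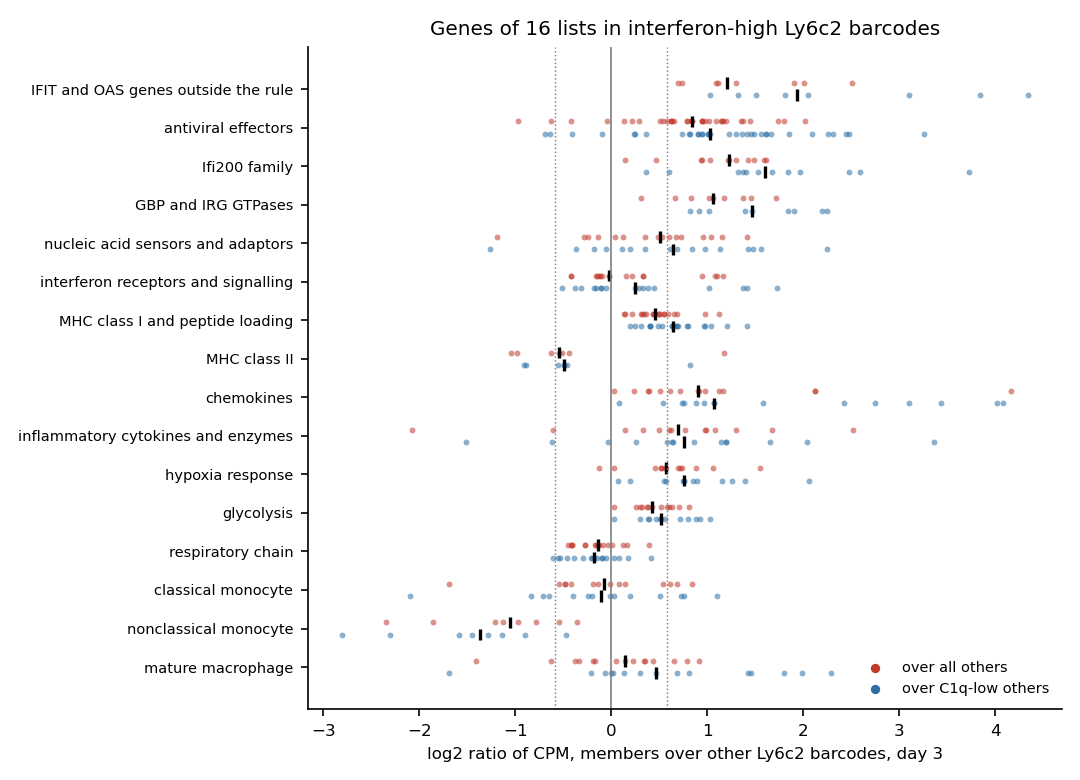
Log2 ratio of CPM on day 3 for each compared gene of 16 lists, members over all others (red) and members over C1q-low others (blue); black bars are list medians and dotted lines mark 1.5-fold. Interferon families, chemokines and hypoxia genes lie mostly right of 0, the respiratory chain near 0, and nonclassical monocyte genes left of it.

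RNA of the ligands was rarely captured. Of 21 interferon ligand genes, only Ifnb1, which encodes interferon beta, had any UMI in kept barcodes, and the other 20 had none on any day. On day 3 members held 29 Ifnb1 UMIs in 3 of 135 barcodes (16, 12 and 1), others held 14 UMIs in 1 of 306, and barcodes without a Ly6c2 call held 12 UMIs in 4 of 438. On day 6 members held 20 UMIs in 1 of 6 barcodes, others held 0, and the remaining barcodes held 5 in 3 of 515. On day 10 members and others held 0 and the remaining barcodes held 2 in 1 of 1179. Ifnb1 RNA was in few barcodes, some of them members.

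Of 17 receptor and signalling genes compared on day 3, 4 were at least 1.5-fold higher in members and none lower, with a median log2 ratio of -0.02. Ifnar1 had 99.8 CPM in members and 79.6 CPM in others (1.25-fold), and Ifnar2 had 180 and 162 CPM (1.11-fold). Ifngr1, a chain of the interferon gamma receptor, had 242 and 325 CPM (0.746-fold). Stat2, a transcription factor of the type I response, had 153 CPM in members and 72.5 CPM in others (2.11-fold). Irf1 and the JAK kinase inhibitor Socs1 were also called higher, whereas Irf9 at 78.8 and 67.9 CPM was not.

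Sensors of foreign nucleic acid were higher in part. Of 16 compared, 7 were at least 1.5-fold higher and 1 lower on day 3, with a median log2 ratio of 0.51. Ifih1, the long double-stranded RNA sensor MDA5, had 116 CPM in members and 43.6 CPM in others (2.67-fold, 2.12 to 3.34). Zbp1, a sensor of Z-form nucleic acid, had 616 and 278 CPM (2.22-fold), Dhx58 had 128 and 61.9 CPM, and Ddx58, the RNA sensor RIG-I, had 92.3 and 60.8 CPM. The adaptor Mavs was lower at 5.25 and 12 CPM, on 7 UMI-bearing member barcodes. Tmem173, which encodes the adaptor STING, had 76.5 and 90.2 CPM and was not called.

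Of 12 listed genes often linked to interferon gamma, 6 were compared on day 3, 3 were at least 1.5-fold higher in members (Fcgr1, Cd274 and Il18bp) and 1 lower (Ciita), with a median log2 ratio of 0.55. The list summed to 1415 CPM in members and 735 CPM in others, and 117 of 135 members lay above the others' median per barcode. Fcgr1, the high-affinity Fc receptor CD64, had 1174 CPM in members and 549 CPM in others on day 3 (2.14-fold), with UMIs in 134 of 135 members. Cd274, which encodes PD-L1, had 122 and 44.4 CPM (2.73-fold). Ciita, the master activator of MHC class II, had 21 and 32.4 CPM, and Cxcl9 had 1 UMI in members. Of 21 genes of MHC class I and peptide loading, 5 were at least 1.5-fold higher and none lower, among them Nlrc5, their transcriptional activator, at 53.3 and 24.5 CPM, and the peptide transporter Tap1 at 184 and 114 CPM.

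MHC class II genes stood lower in the members' sum on day 3, with a smaller gap in the median barcode. Of 7 compared, 3 were at least 1.5-fold lower (H2-Aa, H2-Ab1 and H2-Eb1) and 1 higher (H2-DMb2). The 8 listed genes summed to 4160 CPM in members and 6607 CPM in others, a ratio of 0.63 (0.611 to 0.648), which became 0.294 with the limit inside the library. The median per barcode was 4.69 UMIs per 10000 in members and 5.10 in others. The sums rest on few barcodes: UMIs of H2-Aa were in 28 of 135 members, 1 of which held 27.2% of them, and in 104 of 306 others. Dendritic cell markers were lower as well (60 CPM in members and 148 CPM in others), and Cd209a, a lectin of monocyte-derived dendritic cells, had 45.8 CPM in 7 members and 126 CPM in 24 others. Their part in the class II difference was not tested.

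Among genes at 100 CPM or more the smallest ratio on day 3 was that of Mgst1, a membrane-bound glutathione transferase, at 69 CPM in members and 223 CPM in others (0.31-fold, 0.247 to 0.385). Dmkn had 96.8 and 267 CPM, Tmem176b 66.8 and 177 CPM, Tmem176a 50.3 and 103 CPM, and the metallothionein Mt1, which binds zinc and copper, 160 and 331 CPM. Ckb, the brain-type creatine kinase, had 54 CPM in members and 113 CPM in others, with 38.9% of the members' UMIs in 1 barcode. Lpl, the lipase of triglyceride-rich lipoproteins, had 53.3 CPM in members, 126 CPM in all others and 51.8 CPM in the C1q-low others (1.03-fold).

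Since 96 of the 306 day 3 others were C1q-high and mostly over the score limit, the members were also set beside the 210 C1q-low others, which lie below the limit. Here 974 of 8027 genes (12.1%) were at least 1.5-fold higher and 1286 (16%) lower, with a median log2 ratio of -0.03. Of 63 interferon-stimulated genes, 55 were higher and 2 lower, with a median log2 ratio of 1.41 and sums of 31254 CPM in members and 18974 CPM in C1q-low others. Rsad2 had 575 CPM in members and 60.2 CPM in C1q-low others, and Fcgr1 had 1174 and 330 CPM (3.56-fold). MHC class I genes were higher for 13 of 21.

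The 70 C1q-high Ly6c2 barcodes over the limit on day 3 had nearly the members' interferon profile. None of 63 interferon-stimulated genes was called either way between the groups, where 8.64% of 6586 genes were at least 1.5-fold higher in members and 10.2% at least 1.5-fold lower. The sums were 31254 CPM in members and 29972 CPM in those barcodes, and the median log2 ratio was 0.07. The score chose both groups and the C1q limit split them, so both the interferon closeness and a difference in macrophage genes were partly built in. Here 4 of 14 mature macrophage genes and 4 of 6 MHC class II genes were lower in members, and 4 of 11 inflammatory genes were higher. Il1b, the cytokine interleukin-1 beta, had 5211 CPM in members and 3172 CPM in the C1q-high barcodes.

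The 134 kept day 3 barcodes over the limit with under 2 Ly6c2 UMIs gave a like picture. Against these, 4 of 64 interferon-stimulated genes were higher in members and none lower, beside 7.78% and 11% of 7124 genes. All 8 MHC class II genes were lower in members, with sums of 4160 CPM in members and 19152 CPM in those barcodes. Markers of dendritic cells stood at 60 CPM in members and 347 CPM in that group. Il1b was near equal, at 5211 CPM in members and 5185 CPM in that group.

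**Figure D3:**
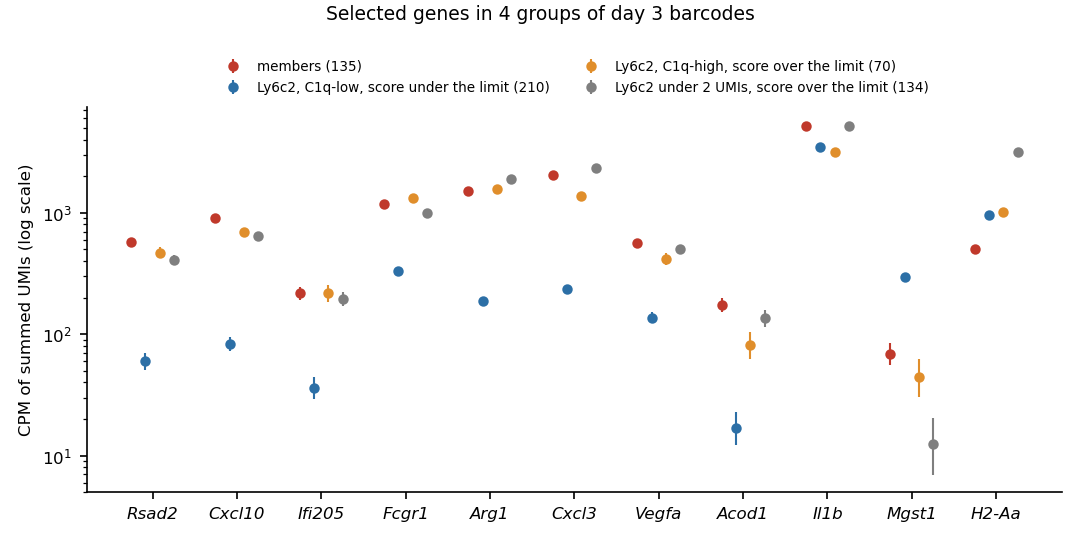
CPM of 11 genes (log scale, bars are 95% Poisson intervals) on day 3 in members, C1q-low Ly6c2 barcodes under the score limit, C1q-high Ly6c2 barcodes over it, and barcodes over it with under 2 Ly6c2 UMIs. Rsad2 stands at 575, 60.2, 468 and 410 CPM in that order, and H2-Aa at 506, 949, 1019 and 3140 CPM.

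Chemokine genes were higher in members on day 3. Of 15 compared, 10 were at least 1.5-fold higher and none lower, with a median log2 ratio of 0.90 and sums of 28183 CPM in members and 15636 CPM in others (1.80-fold). Per barcode the members had a median of 205 chemokine UMIs per 10000 and the others 112, and 90 of 135 members lay above the median of the others. Cxcl10, an interferon-induced attractant of T cells, had 897 CPM in members and 207 CPM in others (4.34-fold, 3.96 to 4.76), with UMIs in 61 of 135 and 77 of 306 barcodes. Neutrophil attractants were also higher, Cxcl3 at 2033 and 467 CPM (4.35-fold, 4.10 to 4.63) and Cxcl2 at 13151 and 6980 CPM (1.88-fold). UMIs of Cxcl3 were in 45 of 135 members. Cxcl3 stood at 1384 CPM in the C1q-high barcodes over the limit and 2356 CPM in those over it with under 2 Ly6c2 UMIs. Of the attractants of CCR2-bearing monocytes, Ccl2 had 2882 CPM in members and 1462 CPM in others and Ccl7 had 820 and 367 CPM. Ccl3 was near equal at 704 and 688 CPM, and the ratio for Ccl8 rested on 1 barcode with 94.9% of the members' UMIs.

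Inflammatory cytokines and enzymes followed the same direction on day 3, with 9 of 14 at least 1.5-fold higher and 2 lower (Il10 and Il23a) and a median log2 ratio of 0.70. Acod1, the enzyme that makes itaconate in activated macrophages, had the largest ratio among the genes at 100 CPM or more, 173 CPM in members and 30.3 CPM in others (5.73-fold, 4.55 to 7.25). Its UMIs were in 31 of 135 members, and 1 of these held 26.4% of them. Il1b had 5211 CPM in members and 3434 CPM in others (1.52-fold), Tnf 416 and 197 CPM (2.11-fold), and Il15, a growth factor of NK and T cells, 61.5 and 25.1 CPM. Il10, an anti-inflammatory cytokine, had 5.25 and 22.1 CPM. Immediate early and dissociation-linked genes were near equal, with sums of 24276 CPM in members and 23460 CPM in others and 1 of 17 called higher.

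Genes of low oxygen and glycolysis were higher as well. Of 13 hypoxia response genes, 6 were at least 1.5-fold higher and none lower on day 3, with sums of 2010 CPM in members and 1185 CPM in others (1.70-fold). Vegfa, the main growth factor of new blood vessels, had 567 CPM in members and 193 CPM in others (2.93-fold, 2.64 to 3.25), and Slc2a1, the glucose carrier GLUT1, had 209 and 113 CPM. Vegfa stood at 414 CPM in the C1q-high barcodes over the limit and 504 CPM in those over it with under 2 Ly6c2 UMIs. Of 13 glycolysis genes, 4 were higher and none lower, with sums of 9285 and 7025 CPM. None of 17 respiratory chain genes was called, with sums of 4875 CPM in members and 5197 CPM in others.

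Arg1, the enzyme that splits arginine in repair-type macrophages, had 1520 CPM in members and 527 CPM in others on day 3 (2.88-fold, 2.71 to 3.07), with UMIs in 71 of 135 and 81 of 306 barcodes. The C1q-low others had 186 CPM of Arg1. It was as high in the C1q-high barcodes over the limit (1565 CPM) and in those with under 2 Ly6c2 UMIs (1885 CPM). Of 12 repair and matrix genes, 5 were higher in members (Arg1, Spp1, Mmp14, Hbegf and Mmp12) and 3 lower (Areg, Mmp8 and Pdgfa). Mmp12 came from 1 member barcode. The formyl peptide receptors Fpr1 and Fpr2, which sense bacterial and damage signals, had 66.8 and 124 CPM in members, against 19.6 and 60.8 CPM in others.

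Along the score on day 3, the 345 C1q-low Ly6c2 barcodes stood higher in higher bins for several gene groups. Their bins ran from under 0.2 through 0.4, 0.6, the limit and 1.2 to above 1.2, with 69, 39, 42, 60, 62 and 73 barcodes. Interferon-stimulated genes outside the rule stood at 14338 CPM in the lowest bin and 35145 CPM in the highest. Chemokines stood at 8813, 10149, 14351, 18746, 21809 and 34644 CPM from the lowest to the highest bin, and hypoxia genes at 619, 968, 1342, 1280, 1735 and 2290 CPM. Classical monocyte genes ran between 16167 and 21140 CPM. MHC class II was highest below the limit, at 11125 CPM in the bin from 0.6, and stood at 3010 CPM above 1.2. Within the 135 members, Spearman's rho with the score was 0.566 for interferon-stimulated genes outside the rule, 0.136 for chemokines and 0.00859 for mature macrophage genes. Over all 345 barcodes the same rho values were 0.751, 0.409 and 0.369, and they share library and depth.

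**Figure D4:**
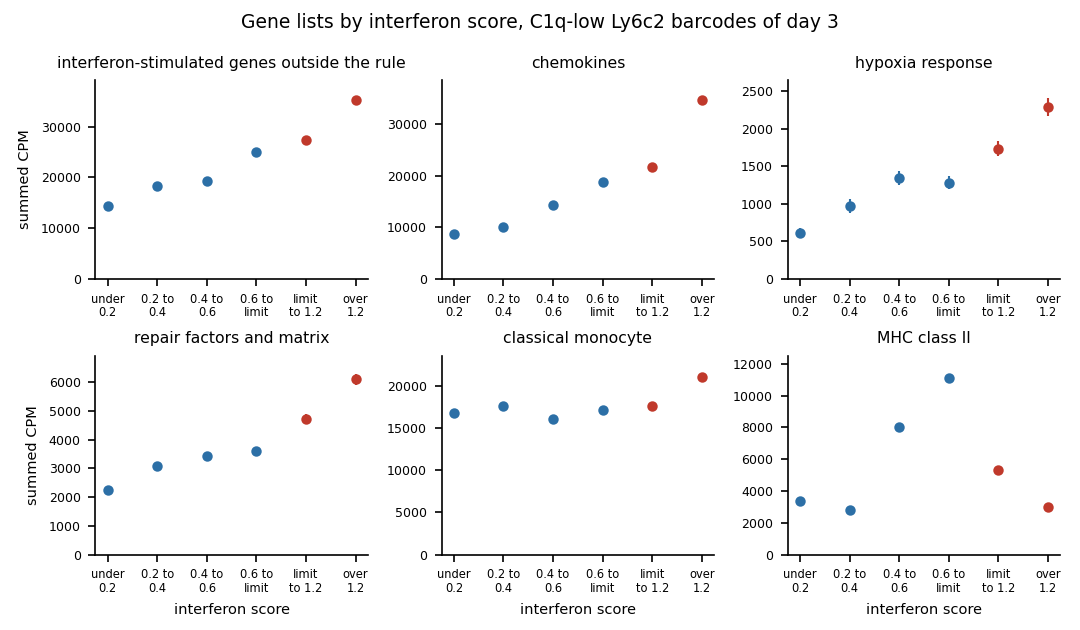
Summed CPM of 6 gene lists by interferon score in C1q-low Ly6c2 barcodes of day 3, with others in blue and members in red; bars are 95% Poisson intervals. Chemokines reach 34644 CPM in the highest bin against 8813 CPM in the lowest, and MHC class II peaks at 11125 CPM just under the limit.

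The 6 members of day 6 were set beside 30 others. There 625 of 3230 genes (19.3%) were at least 1.5-fold higher and 740 (22.9%) lower, so calls were common at this depth. Interferon-stimulated genes were higher for 42 of 48 and lower for 2, with sums of 30810 CPM in members and 11681 CPM in others (2.64-fold). Cxcl10 had 63, 163, 2, 1, 1 and 24 UMIs in the 6 members ordered by falling score, and Cxcl2 had 127, 747, 0, 81, 77 and 0. Members thus differed widely from each other beneath the chemokine sum of 35316 CPM in members and 15334 CPM in others. Immediate early genes were also higher in these members, at 33217 CPM and 16174 CPM in others. Arg1 had 851 CPM in members and 755 CPM in others.

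The 9 members of day 10 were set beside 84 others, where 883 of 4950 genes (17.8%) were at least 1.5-fold higher and 576 (11.6%) lower, with a median log2 ratio of 0.15. Interferon-stimulated genes were higher for 45 of 51 and lower for 1, with sums of 35827 CPM in members and 16410 CPM in others (2.18-fold, 2.10 to 2.27). Per barcode these members had 265 to 423 UMIs per 10000, with a median of 354, and the others had 18.1 to 337 with a median of 155. All 9 lay above the others' median. The Ifi200 family stood at 6788 CPM in members and 956 CPM in others, with 10 of 10 compared genes higher, and 9 of 10 sensors were higher with none lower. With the limit inside the library, 39 members had 1.39 times the interferon-stimulated sum of the others and 2.68 times their Ifi200 sum. Plasmacytoid dendritic cell markers summed to 234 CPM in the 9 members (21 UMIs) and 66.7 CPM in others, with only Tcf4 at enough UMIs to compare, and their part in the result was not tested.

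The inflammatory side differed on day 10. Chemokines summed to 4097 CPM in members and 7740 CPM in others (0.529-fold), with 2 of 11 genes higher and 6 lower. The typical barcode showed no such drop, with a median of 35.3 chemokine UMIs per 10000 in members and 26.8 in others, and 8 of 9 members above that median. The highest of the others reached 550 per 10000 and the highest member 86.5. Inflammatory genes summed to 1094 CPM in members and 2468 CPM in others (0.443-fold), hypoxia genes to 380 and 905 CPM (0.419-fold) and glycolysis genes to 3774 and 5822 CPM. Arg1 had no UMI in any of the 9 members, where the floor of 3 UMIs used for ratios equals 33.5 CPM, against 772 CPM in others. Cxcl2 had 1, 1, 0, 1, 0, 2, 2, 0 and 11 UMIs in these members ordered by falling score. Isg15 in the same order had 48, 12, 18, 18, 20, 6, 17, 5 and 6.

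Day 10 members against day 3 members compared 1 library with 1 library. Of 5681 genes, 1236 (21.8%) were at least 1.5-fold higher on day 10 and 855 (15.1%) lower, with a median log2 ratio of 0.32. TMM scaling shifted all ratios by -0.28 and gave 793 higher and 1289 lower, so lists are read against that median. Among the others, 1036 of 8427 genes (12.3%) were higher on day 10 and 1488 (17.7%) lower, with a median of -0.02. These comparisons use the same pair of libraries, and their values are set side by side.

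Between the days, interferon-stimulated genes of members depended on how the members were chosen. They summed to 35827 CPM in day 10 members, against 31254 CPM in day 3 members, a ratio of 1.15 that became 0.95 under TMM scaling. In the others the sums were 16410 CPM on day 10, against 21308 CPM on day 3. The others of day 3 held 70 C1q-high barcodes over the score limit, and those of day 10 held 0. Without any C1q-high barcode the day 3 others had 18974 CPM. The part of this difference in make-up was not tested. Of 63 genes compared in members 24 were higher on day 10 and 8 lower, and of 62 in others 1 was higher and 46 lower. The score limit was the same on both days and kept low scorers out of the members, so their level is not independent of the rule. With the limit taken inside each library, the sums were 21777 CPM in day 10 members, against 38128 CPM in day 3 members, and 15664 CPM, against 22646 CPM, in the others. Members of the Ifi200 family such as Ifi211 (1105 CPM on day 10, against 585 CPM on day 3) and Ifi208 (145 against 40.5 CPM) were higher in the late members. Rsad2 (324 against 575 CPM) and Ifi206 (89.3 against 188 CPM) were lower.

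Chemokine, hypoxia and stress genes stood far lower in the late members. None of 15 chemokine genes was higher and 13 were lower, with sums of 4097 CPM on day 10, against 28183 CPM on day 3. Cxcl2 had 201 CPM in day 10 members, against 13151 CPM in day 3 members, which is 65.4-fold lower (41.4 to 110), while the others had 4215 CPM, against 6980 CPM. Cxcl3, Arg1, Spp1, Ccl7 and Basp1 had no UMI in the 9 late members. With that count set to 3 UMIs, they were 60.7-fold, 45.4-fold, 28.1-fold, 24.5-fold and 19.9-fold lower in that order. The lower ends of their intervals were 49.3-fold, 36.9-fold, 22.8-fold, 19.9-fold and 16.2-fold. With the limit inside each library the gaps were smaller, with Cxcl3 at 218 CPM in day 10 members, against 2057 CPM in day 3 members, Arg1 at 171 CPM, against 2125 CPM, and Spp1 at 340 CPM, against 1465 CPM. Arg1 in the others had 772 CPM on day 10, against 527 CPM on day 3. Hypoxia genes were lower for 10 of 12 in members, glycolysis genes for 11 of 13 and unfolded protein genes for 11 of 15. Their summed ratios of day 10 to day 3 were 0.189, 0.406 and 0.368 in members and 0.764, 0.829 and 0.490 in the others. The median log2 ratio of unfolded protein genes was -1.18 in members and -1.19 in the others, so these genes stood lower in both groups. Immediate early and dissociation-linked genes were lower for 14 of 17, at 9691 CPM on day 10, against 24276 CPM on day 3, and moved alike in the others at 11139 CPM, against 23460 CPM. Their part in the other differences was not tested.

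The genes highest in day 10 members included Cx3cr1 at 201 CPM, against 16.5 CPM in day 3 members (12.2-fold), with 157 CPM and 32.4 CPM in the others. Cd40, a costimulatory receptor, had 190 CPM on day 10, against 22.5 CPM on day 3 (8.43-fold), and the cell cycle regulator E2f2 had 112 against 9 CPM. Apobec3, a cytidine deaminase that restricts retroviruses, had 257 against 51 CPM in members and 51.7 against 65.7 CPM in others. The day 10 values rest on 18 UMIs in 5 members for Cx3cr1, 17 in 6 for Cd40, 10 in 5 for E2f2 and 23 in 8 for Apobec3. With the limit inside each library, Apobec3 had 92.9 CPM on day 10, against 68.3 CPM on day 3, and Cd40 had 70.9 against 23.6 CPM. Cx3cr1 then had 176 against 0 CPM and E2f2 68.5 against 9.42 CPM. Mgst1 had 380 CPM in late members, against 69 CPM in early ones, and 377 against 223 CPM in the others. Ccr2 had 1440 against 885 CPM in members and 948 against 893 CPM in others. All 6 compared MHC class II genes were higher on day 10, with sums of 8708 CPM, against 4160 CPM on day 3 in members and 11567 CPM, against 6607 CPM in others. The late members' H2-Aa UMIs were 0, 59, 29, 0, 0, 16, 2, 1 and 1 by falling score, so 3 barcodes held most of them. On day 10, 4 of 9 members lay above the others' median for the class II sum per barcode.

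**Figure D5:**
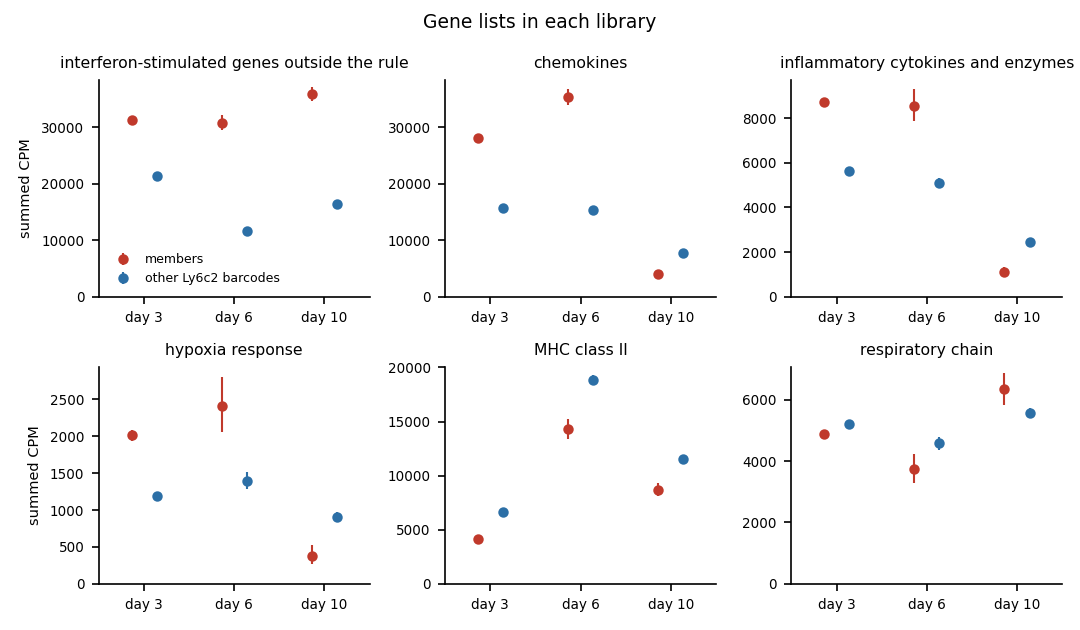
Summed CPM of 6 gene lists by day in members (red) and other Ly6c2 barcodes (blue), 1 library per day, bars are 95% Poisson intervals. Interferon-stimulated genes in members stand at 31254, 30810 and 35827 CPM on days 3, 6 and 10, while members lie above others for chemokines on day 3 (28183 and 15636 CPM) and below them on day 10 (4097 and 7740 CPM).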

How the data were processed

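Single-cell RNA was measured in 1 library for each of days 3, 6 and 10. The deposited values are UMI counts per gene and barcode that the authors made with Cell Ranger 3.0.2 on mm10, per the submitters' processing notes. The files hold 31053 gene identifiers and 1472, 1196 and 2209 barcodes on days 3, 6 and 10, of which 879, 551 and 1272 were kept, with 9731238, 7202217 and 11998927 UMIs. Counts were summed over the barcodes of a group in a library and turned into CPM with exact Poisson 95% intervals, ratios have exact conditional binomial intervals, and shares have Clopper-Pearson intervals. These cover counting error only. A count under 3 UMIs in a group was set to 3 UMIs for a ratio. With 1 library a day no p-value was computed. The members and all 33 gene lists were chosen with earlier results of these data known.

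The named genes were, at 100 CPM or more, the 15 with the largest and 10 with the smallest day 3 ratios, the top 3 of each list, and the 10 highest and 10 lowest of day 10 against day 3. Mitochondrial, ribosomal and unnamed gene models were left out. Other list genes were named by role after their values were seen. Doublets that Scrublet called were kept in. Alternatives changed the score percentile, the pooling of the limit, the C1q limit, the UMI minimum, the scaling and the libraries. The ratio steps were tested on simulated data. Python 3.11.15, numpy 2.4.6, scipy 1.17.1, pandas 2.3.3, scanpy 1.11.5, matplotlib 3.10.9, R 4.3.3 and edgeR 4.0.16 (TMM factors only) were used.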

Additional observations from a re-analysis of the deposited data

Results flagged for a closer look

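On day 3, 24 barcodes that were left out for their mitochondrial share met every other part of the member rule, in data that the comparisons above do not use. They were among 51 Ly6c2 barcodes of the 379 left out on that day for this reason, and 1 such barcode was found on day 6 and 3 on day 10.

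For 3 gene groups the summed level of members over others lay below 1 on day 10 and above 1 on day 3. The ratio was 0.529 on day 10 and 1.80 on day 3 for chemokines, 0.443 and 1.55 for inflammatory cytokines and enzymes, and 0.419 and 1.70 for hypoxia response genes. These are sums, and per barcode 8 of the 9 day 10 members lay above the others' chemokine median. The difference between the days was not tested, since each day is 1 library and day 10 has 9 members.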

How the results depend on the processing

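No paired analysis was possible because each day has 1 library. The day 3 share of 30.6% became 19.95% with the top 10%, 39.9% with the top 20% and 11.1% with limits within each library, and ranged over 15.9% to 27.2% with a library left out. The day 10 share of 9.68% became 41.9% within each library and ranged over 8.60% to 35.5% with a library left out. The 748 genes higher and 1215 lower became 146 and 203 within each library, where both day 3 and day 10 had to show the direction. They became 338 and 346 at 100 UMIs or more, and 1290 were higher at 1 UMI or more. With a library left out the lower count ranged over 762 to 1724. The median log2 ratio of interferon-stimulated genes outside the rule, 0.96, became 1.27 within each library and 1.41 with the C1q limit on the others, and ranged over 1.01 to 1.26 with a library left out. That of classical monocyte genes became -0.21 with the top 10%, and that of mature macrophage genes 0.46 with the C1q limit. Between days, members had 793 genes higher and 1289 lower under TMM, and 365 higher at 100 UMIs or more. Log2 ratios that changed sign were -0.48 for Arg1 within each library and 0.041 for Lpl with the C1q limit. The Arg1 value is a mean of day 3, where members had 3.18 times the level of others, and day 10, where they had 0.161 times. Resident dermal macrophage and G2/M genes also changed sign, both to 1.46 at 1 UMI or more. Any gene with under 3 UMIs in both day 3 groups got this value, because both counts were set to 3. It is thus set by the total UMIs of the groups and not by these genes. Without day 3 the comparison rests on day 10, and signs changed there. With a library left out the ranges were -0.58 to 1.11 for chemokines, -0.50 to 0.94 for inflammatory genes, -0.53 to 0.078 for S phase, -2.51 to 3.09 for Acod1, -4.06 to 1.67 for Arg1, -4.90 to 2.25 for Cxcl3, -1.41 to 1.12 for Dmkn, -1.60 to 0.14 for H2-Eb1, -4.01 to 2.14 for Inhba, -1.40 to 0.30 for Lpl, -3.74 to 1.63 for Pdpn, -1.60 to 0.29 for Tmem176b and -0.99 to 1.42 for Vegfa. The cause was not tested. Among the values for single genes or lists under these alternatives, the sign changes named above number 17, all from main ratios of at least 1.5-fold. A further 1083 values stayed inside the counting interval of the main value and 210 moved out of it. Of these 210, 5 had the other sign, 96 lay nearer 0 and 109 farther from it. The 68127 and 89570 UMIs of the members on day 6 and day 10 limit what could be compared there.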

Other observations

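With the limit set within each library, 39 Ly6c2 barcodes of day 10 were members, and the 9 members of the pooled rule were all among them. Cxcl10 then had 259 CPM in members and 24.6 CPM in others, Rsad2 149 and 3.28 CPM, and Fcgr1 423 and 166 CPM. Arg1 had 171 CPM in members and 1061 CPM in others, with UMIs in 6 of 39 members, and Cxcl2 had 2328 and 4891 CPM. The chemokine sum of 6157 CPM in members and 8266 CPM in others (0.745-fold, 0.71 to 0.781) and the inflammatory sum of 1751 and 2748 CPM lay on the same side as with the 9 members.

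Of the 5 cell cycle genes of S phase compared on day 3, 3 were at least 1.5-fold lower in members (Mcm3, Rrm1 and Gins2), and of 15 unfolded protein response genes none was called. None of 15 cell death and inflammasome genes was called either. Of 13 genes for chemoattractant receptors and adhesion, 5 were higher and none lower. C5ar1, the receptor of the complement fragment C5a, had 346 CPM in members and 222 CPM in others, and Itgam, the integrin chain CD11b, had 688 and 429 CPM.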
